A study of Mus musculus with 8 samples.

Results

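The type I interferon stimulated genes described here are 39 mouse genes, taken by name from the classical antiviral response. Earlier results of these data were known when the list was made. All 39 were found by symbol among the 53647 genes listed, and all 39 were among the 16352 genes with enough counts to be tested. RNA was sequenced from Lin- CD127+ cells sorted out of mouse bone marrow, a gate that holds early lymphoid progenitors and precursors of innate lymphoid cells, with 4 libraries labelled Trerf1 knockout (KO1 to KO4, genotype written as Tref1 -/-) and 4 labelled wild type (WT1 to WT4, Trerf1 +/+). Trerf1 encodes a zinc finger transcription factor, and the question the labels pose is what its loss does to expression in these cells. Strain, age, sex and the deleted stretch of Trerf1 are not given in the labels, nor whether the numbered libraries come from separate animals, and p-values here speak only of the spread among these 8 libraries, which may be technical.

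Type I interferons are secreted proteins that bind the receptor pair IFNAR1 and IFNAR2. The kinases JAK1 and TYK2 then phosphorylate STAT proteins, which join IRF9 in the complex ISGF3 and bind the interferon-stimulated response element in the promoters of their target genes. The products sense foreign nucleic acid, degrade RNA, block translation of viral RNA or feed back on the pathway, and in unstimulated bone marrow a low constant supply of interferon keeps many of them transcribed. Plasmacytoid dendritic cells, which make large amounts of interferon and hold Irf7 at a high level at rest, arise in part from lymphoid progenitors that carry CD127.

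Total counts ran from 31109744 to 73414626 per library, and levels are given as CPM, the counts of a gene relative to the library total after TMM scaling. Trerf1 was at 13.4, 12.8 and 12.1 CPM in KO1, KO2 and KO3, with 22.1 CPM in the library labelled KO4, against 29.0, 32.1, 27.1 and 22.3 CPM in WT1 to WT4. The library labelled KO4 thus stood at the level of WT4, and every statement below that includes it rests on its label. The log2 fold change of Trerf1 was -0.87 ± 0.20 (SE; edgeR quasi-likelihood test, adjusted p 0.999), while an exact permutation test over the libraries (two-sided) gave p 0.0286, its smallest possible value at 4 against 4. With WT4 and the library labelled KO4 both left out, Trerf1 passed the threshold (-1.20, edgeR adjusted p 0.0473) and still 0 of the 39 interferon genes did. These were the WT library lowest and the KO library highest in Trerf1. Leaving them out widens its difference by construction, so this fit is no separate check of the knockout. Il7r, which encodes CD127, averaged 354 ± 45.8 CPM in KO and 324 ± 46.8 CPM in WT (SD, n = 4 each), so the sorted protein's transcript was present in all libraries. Summed over 10 genes each, early lymphoid progenitor markers were at 6934 to 10709 CPM in KO and 6788 to 8502 CPM in WT libraries, and plasmacytoid dendritic cell markers at 6018 to 7897 CPM in KO and 5250.3 to 9612 CPM in WT libraries. In bulk libraries fewer cells of a type and less RNA per cell cannot be told apart. Of the lineages the sort should remove, T cell markers summed to 287 to 502 CPM in KO and 283 to 381 CPM in WT libraries. In that list Cd3e averaged 8.09 ± 2.80 CPM in KO and 6.21 ± 1.57 CPM in WT, and Cd4 137 ± 98.4 CPM and 111 ± 71.02 CPM. Erythroid markers summed to 47.5 to 259 CPM in KO and 53.1 to 668 CPM in WT libraries. B lineage markers were at 759.6 to 961 CPM in KO and 649 to 882 CPM in WT libraries. Xist, which coats the inactive X chromosome in female cells, was at 447 to 768 CPM in KO1, KO3, the library labelled KO4, WT1 and WT4, and at most 0.613 CPM in KO2, WT2 and WT3, where the Y-linked gene Ddx3y was at 82.9 to 102 CPM.

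No interferon stimulated gene passed the test between knockout and wild type. Of the 39 genes 0 were called at an adjusted p under 0.05 (edgeR quasi-likelihood test with Benjamini-Hochberg adjustment over 16352 genes), beside 0% of all genes tested. At an unadjusted p under 0.05 there was 1 of 39 (2.56%), Igtp, beside 322 of 16352 genes (1.97%, made up of 1.04% higher and 0.93% lower in knockout). DESeq2 and limma-voom also called 0 of the 39, with 1 and 2 at an unadjusted p under 0.05. The counts over all genes under both methods stand in the last section, and these small counts are not read as a result. The fitted log2 fold changes lay between -0.13 and 0.65, and every adjusted p was 0.999. Estimates above 0 were held by 33 of the 39 genes (84.6%), beside 51.7% of all genes, and the median estimate was 0.13, beside 0.0075 over all genes tested. In 0 of the 39 genes did the KO and WT libraries separate without overlap, which 0.74% of all genes did with knockout above and 0.544% with knockout below. Without KO1, 19 of 39 estimates were above 0 and their median was -0.0089. With Xist in the model 22 of 39 were above 0 (51.1% of all genes) with a median of 0.034, and 1 was at an unadjusted p under 0.05, beside 2.95% of all genes. This was Samd9l, lower in knockout (-0.36, edgeR p 0.0415 before and 0.995 after adjustment), while Igtp had an unadjusted p of 0.0626 in that model.

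**Figure D1:**
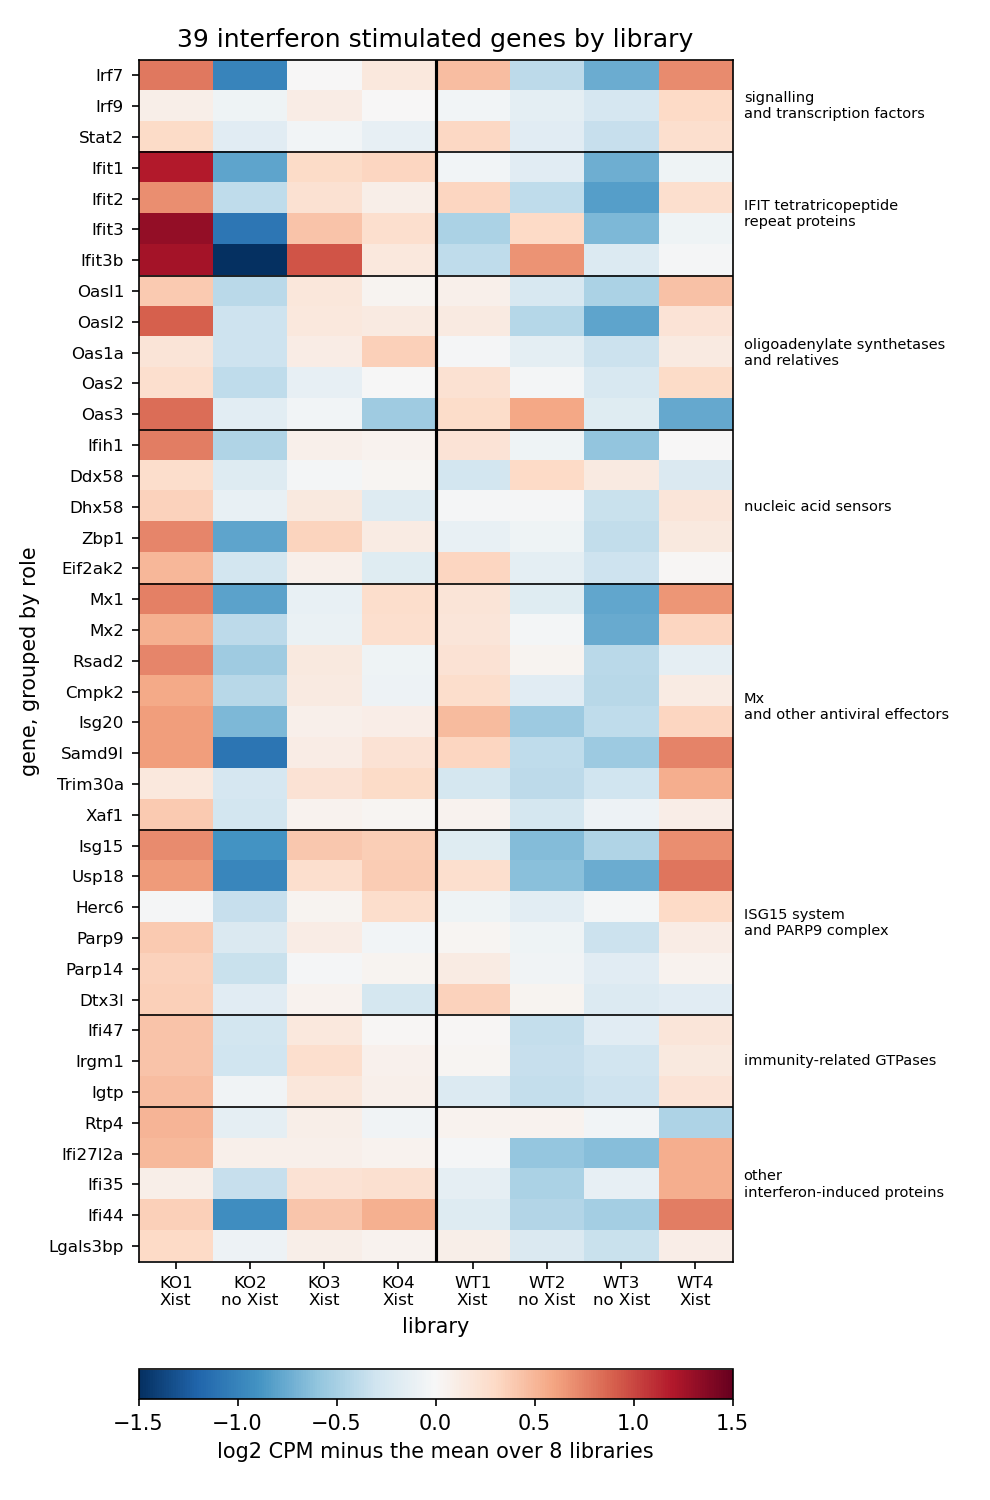
Each cell gives 1 gene in 1 library as log2 CPM minus that gene's mean over the 8 libraries (prior count 3; red above, blue below, values beyond the ends of the scale take its end colours), with KO libraries left of WT libraries and genes grouped by role. KO1 is red in most rows and KO2, WT2 and WT3, the libraries without Xist, are blue in most rows.

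Among the signalling members, Irf7, the factor that switches on interferon alpha genes, was the most variable. Irf7 was at 319, 92.8 and 187 CPM in KO1, KO2 and KO3, with 207 CPM in the library labelled KO4, against 255, 141, 111 and 304 CPM in WT1 to WT4. The groups spanned nearly the same range (201 ± 92.99 CPM in KO and 203 ± 91.5 CPM in WT), with KO1 and WT4 at the top and KO2 and WT3 at the bottom. Irf9, the DNA-binding subunit of ISGF3, stood at 204 to 229 CPM in KO libraries and 178 to 262 CPM in WT libraries, and overlapped between genotypes. Its partner Stat2 stood at 174 to 239 CPM in KO libraries and 154 to 243 CPM in WT libraries. Counts of Irf7 can include reads of Phrf1, which overlaps it on the opposite strand, since the library kit does not mark strand. Those of Irf9 can include reads of Rnf31, whose span overlaps it on the same strand.

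The IFIT genes, whose tetratricopeptide repeat proteins bind viral RNA and block its translation, lie side by side on chromosome 19, and all 4 had their highest level in KO1. Their fitted estimates had a median of 0.53, including the 2 largest of the list, and none passed the test. Ifit1 was at 21.1, 5.31 and 11.3 CPM in KO1, KO2 and KO3, with 11.6 CPM in the library labelled KO4, against 8.99, 8.19, 5.55 and 8.82 CPM in WT1 to WT4. KO1 alone stood far above the rest, at a log2 of 1.24 over the median library, and KO2 was below every WT library. The log2 fold change of Ifit1 was 0.64 ± 0.35 (SE, p 0.0904 before adjustment) and it was 0.25 without KO1. Ifit3 was at 9.71, 1.79 and 5.23 CPM in KO1, KO2 and KO3, with 4.60 CPM in the library labelled KO4, against 2.75, 4.75, 2.39 and 3.67 CPM in WT1 to WT4. KO1 was again the highest and KO2 the lowest, and the log2 fold change was 0.65 ± 0.43 (SE, p 0.163 before adjustment).

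Ifit3b, a near copy of Ifit3, ranged over 0.123 to 2.29 CPM in KO libraries and 0.696 to 1.52 CPM in WT libraries, and its lowest library, KO2, held only 4 counts. Reads shared by these copies could have been left out or split by the authors' counting, so both levels are uncertain. Ifit3 had 2.74 counts per RSEM expected count, Oas1a 2.70 and Herc6 2.44, beside 3.79 over all genes. Ifit2, which binds AU-rich RNA, was at 79.8, 38.04 and 57.9 CPM in KO1, KO2 and KO3, with 52.4 CPM in the library labelled KO4, against 62.05, 37.9, 27.9 and 58.8 CPM in WT1 to WT4. The libraries without Xist (KO2, WT2 and WT3) were the 3 lowest, within each genotype as well as across both.

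The promoter windows of Ifit1, Ifit3 and Ifit3b are printed from the RefSeq promoter table (build GRCm38.p6, 250 bases before to 50 bases after the start, 5′ to 3′ on the gene's strand) because these genes had the widest swings between libraries. Capitals mark each match to the core letters of the interferon-stimulated response element, GAAA followed by any 2 bases and GAAA, on either strand. All 3 are on the plus strand, Ifit1 at chr19:34640639-34640938, Ifit3 at chr19:34583279-34583578 and Ifit3b at chr19:34607707-34608006.
Ifit1: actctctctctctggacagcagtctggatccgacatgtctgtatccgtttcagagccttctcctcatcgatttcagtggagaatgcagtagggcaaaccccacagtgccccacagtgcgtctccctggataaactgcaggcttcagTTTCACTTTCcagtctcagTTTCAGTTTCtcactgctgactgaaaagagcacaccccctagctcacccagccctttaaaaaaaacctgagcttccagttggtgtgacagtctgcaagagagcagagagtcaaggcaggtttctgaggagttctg
Ifit3: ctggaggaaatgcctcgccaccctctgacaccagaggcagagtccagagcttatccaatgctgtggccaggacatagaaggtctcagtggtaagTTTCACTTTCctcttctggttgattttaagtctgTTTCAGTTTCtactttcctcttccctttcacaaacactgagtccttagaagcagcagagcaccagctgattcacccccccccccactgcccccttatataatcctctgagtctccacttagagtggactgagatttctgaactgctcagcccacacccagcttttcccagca
Ifit3b: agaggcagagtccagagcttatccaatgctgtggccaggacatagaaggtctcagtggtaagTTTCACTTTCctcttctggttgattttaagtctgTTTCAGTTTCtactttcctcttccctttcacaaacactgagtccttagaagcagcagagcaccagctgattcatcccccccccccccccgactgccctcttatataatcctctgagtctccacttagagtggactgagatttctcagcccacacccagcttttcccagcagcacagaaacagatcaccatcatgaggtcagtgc
Each window holds 2 matches, both on the opposite strand, beginning 104 and 85 bases before the start in Ifit1, 156 and 122 in Ifit3, and 188 and 154 in Ifit3b. The windows of Ifit3 and Ifit3b share an identical run of 169 bases that includes both matches. Of the 39 genes, 29 had a window in the table, and 14 of these (48.3%) held these core letters, beside 1079 of 27025 genes (3.99%). The letters TTCNNNGAA, the core of the gamma-activated site bound by STAT dimers, stood in 6 of 29 (20.7%), beside 2582 of 27025 genes (9.55%). A match is a description of these letters, which neither shows binding nor, where absent, speaks against it.

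The oligoadenylate synthetases make the messenger that activates RNase L, and their relatives Oasl1 and Oasl2 carry the same fold. Oasl2 was at 68.4, 29.7 and 41.3 CPM in KO1, KO2 and KO3, with 40.5 CPM in the library labelled KO4, against 40.4, 27.4, 21.2 and 42.3 CPM in WT1 to WT4. KO1 lay above all other libraries and WT3 below them, and the log2 fold change was 0.45 ± 0.27 (SE, p 0.124 before adjustment). Oas1a was at 23.5, 16.5 and 22.2 CPM in KO1, KO2 and KO3, with 26.2 CPM in the library labelled KO4, against 20.2, 18.5, 16.3 and 22.6 CPM in WT1 to WT4, with a log2 fold change of 0.19 ± 0.16 (SE, p 0.276 before adjustment). It was the only gene of the 39 that was highest in the library labelled KO4, and its near copy Oas1g makes the assignment of its reads uncertain. Oasl1, which in mice restrains translation of Irf7, stood at 14.5 to 25.1 CPM in KO libraries and 13.8 to 25.98 CPM in WT libraries. Oas2 stood at 4.94 to 7.67 CPM in KO libraries and 5.46 to 7.89 CPM in WT libraries, and both were highest in WT4.

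Oas3 did not follow the others. It was at 29.1, 14.6 and 15.8 CPM in KO1, KO2 and KO3, with 11.3 CPM in the library labelled KO4, against 19.8, 24.4, 14.3 and 9.55 CPM in WT1 to WT4. WT4, the highest library for 10 of the 39 genes, was the lowest here, and WT2 was the second highest after KO1.

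Of the 5 nucleic acid sensors, 4 were highest in KO1. Ifih1, which encodes MDA5, the sensor of long double-stranded RNA, was at 52.3, 22.3 and 32.4 CPM in KO1, KO2 and KO3, with 31.8 CPM in the library labelled KO4, against 35.3, 29.2, 20.4 and 30.8 CPM in WT1 to WT4. KO1 was the highest and WT3 the lowest for Ifih1. Ddx58, which encodes RIG-I, the sensor of RNA ends, was at 38.9, 28.2 and 31.9 CPM in KO1, KO2 and KO3, with 33.1 CPM in the library labelled KO4, against 26.7, 39.9, 35.5 and 27.8 CPM in WT1 to WT4. Its order was different, with WT2 the highest and WT1 the lowest. Dhx58 (LGP2), a regulator of both sensors, stood at 33.2 to 48.3 CPM in KO libraries and 30.2 to 43.2 CPM in WT libraries. Zbp1, a sensor of Z-form nucleic acid, ranged over 6.57 to 18.99 CPM in KO libraries and 8.83 to 12.7 CPM in WT libraries. Eif2ak2 (PKR), the kinase that halts translation on double-stranded RNA, ranged over 73.8 to 126 CPM in KO libraries and 71.6 to 112 CPM in WT libraries. All 3 were highest in KO1, and the KO and WT ranges overlapped.

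Among the antiviral effectors Samd9l, a restrictor of translation and growth, varied most. Samd9l was at 120.1, 36.4 and 84.02 CPM in KO1, KO2 and KO3, with 90.4 CPM in the library labelled KO4, against 97.7, 59.7, 53.4 and 130.2 CPM in WT1 to WT4. WT4 and KO1 were the highest and KO2, WT3 and WT2 the lowest, and the group means nearly coincided at 82.7 ± 34.7 CPM in KO and 85.2 ± 35.8 CPM in WT. Mx1 and Mx2, dynamin-like GTPases that block early steps of viral replication, stood at 18.4 to 54.2 CPM in KO libraries and 18.6 to 50.9 CPM in WT libraries for Mx1. The values were 13.6 to 25.9 CPM in KO libraries and 10.5 to 22.4 CPM in WT libraries for Mx2. Rsad2 (viperin), which makes a chain-terminating nucleotide, was at 13.5, 5.58 and 8.98 CPM in KO1, KO2 and KO3, with 7.72 CPM in the library labelled KO4, against 9.39, 8.37, 6.10 and 7.41 CPM in WT1 to WT4. KO1 was its highest library and KO2 its lowest. Cmpk2, the nucleotide kinase beside Rsad2 on chromosome 12, ranged over 51.4 to 102 CPM in KO libraries and 51.4 to 82.1 CPM in WT libraries. Isg20, an RNA exonuclease, ranged over 8.45 to 21.0 CPM in KO libraries and 9.28 to 18.8 CPM in WT libraries. Both were highest in KO1. Trim30a, a ubiquitin ligase that dampens innate signalling in mice, ranged over 147 to 213 CPM in KO libraries and 133 to 255 CPM in WT libraries and was highest in WT4. Xaf1, a partner of XIAP in cell death, ranged over 26.01 to 41.6 CPM in KO libraries and 26.3 to 33.7 CPM in WT libraries.

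The ISG15 system attaches and removes a ubiquitin-like tag. Isg15, the tag itself, was at 26.6, 8.67 and 21.4 CPM in KO1, KO2 and KO3, with 20.9 CPM in the library labelled KO4, against 14.3, 10.3, 11.8 and 26.3 CPM in WT1 to WT4. Usp18, the protease that removes the tag and also silences IFNAR2, was at 140.2, 45.5 and 107 CPM in KO1, KO2 and KO3, with 117 CPM in the library labelled KO4, against 107, 58.1, 53.6 and 157 CPM in WT1 to WT4. For both, KO2, WT2 and WT3 were the 3 lowest libraries, and KO1 and WT4 the highest. The promoter window of Isg15 is printed because it had the most matches of any in the list (chr4:156200769-156201068, minus strand, GRCm38.p6; capitals mark 3 overlapping matches to the response element core beginning 78, 72 and 66 bases before the start).
Isg15: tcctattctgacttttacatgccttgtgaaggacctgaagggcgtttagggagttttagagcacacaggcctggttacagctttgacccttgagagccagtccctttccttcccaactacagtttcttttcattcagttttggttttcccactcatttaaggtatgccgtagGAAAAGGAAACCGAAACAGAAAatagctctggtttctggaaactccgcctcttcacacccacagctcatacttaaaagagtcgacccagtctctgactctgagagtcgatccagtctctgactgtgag
Herc6, the main ISG15 ligase in mice, was flatter, at 20.2 to 30.999 CPM in KO libraries and 23.1 to 31.6 CPM in WT libraries. The PARP9 complex, which modifies chromatin and viral proteins, was represented by Parp9 at 72.8 to 111 CPM in KO libraries and 67.5 to 91.2 CPM in WT libraries. Its partner Dtx3l, a ubiquitin ligase, stood at 84.9 to 131 CPM in KO libraries and 88.5 to 129 CPM in WT libraries. Parp9 and Dtx3l overlap each other in the genome on opposite strands, so reads from the shared stretch cannot be told apart. The related Parp14 stood at 24.4 to 39.4 CPM in KO libraries and 27.3 to 33.7 CPM in WT libraries, and all 3 were highest in KO1.

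The immunity-related GTPases, which act on vacuoles that hold pathogens, held the gene with the smallest p of the list, and all 3 were highest in KO1 and lowest in WT2. Igtp (also called Irgm3) was at 139.5, 97.6 and 114 CPM in KO1, KO2 and KO3, with 107 CPM in the library labelled KO4, against 87.6, 78.8, 81.3 and 117 CPM in WT1 to WT4. All KO libraries lay above WT1, WT2 and WT3, but WT4 lay above all KO libraries except KO1. The means were 115 ± 17.97 CPM in KO and 91.1 ± 17.5 CPM in WT (SD, n = 4 each), and the log2 fold change was 0.33 ± 0.15 (SE, p 0.0487 before and 0.999 after adjustment). Reads of Igtp may include some of the overlapping gene Irgm2. Irgm1, a regulator of autophagy, was at 193, 117 and 171 CPM in KO1, KO2 and KO3, with 150.5 CPM in the library labelled KO4, against 147, 113, 118 and 159 CPM in WT1 to WT4, with a log2 fold change of 0.23 ± 0.16 (SE, p 0.178 before adjustment). Ifi47 was at 170.3, 104 and 141 CPM in KO1, KO2 and KO3, with 128 CPM in the library labelled KO4, against 128, 98.2, 113 and 143 CPM in WT1 to WT4, with a log2 fold change of 0.17 ± 0.16 (SE, p 0.298 before adjustment). For both, the ranges of the KO and WT libraries overlapped.

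The promoter window of Igtp is shown as the gene nearest to the threshold (chr11:58199306-58199605, plus strand, GRCm38.p6). Capitals mark a match to TTCNNNGAA beginning 45 bases before the start and, 2 bases after it, a match to the response element core beginning 34 bases before the start.
Igtp: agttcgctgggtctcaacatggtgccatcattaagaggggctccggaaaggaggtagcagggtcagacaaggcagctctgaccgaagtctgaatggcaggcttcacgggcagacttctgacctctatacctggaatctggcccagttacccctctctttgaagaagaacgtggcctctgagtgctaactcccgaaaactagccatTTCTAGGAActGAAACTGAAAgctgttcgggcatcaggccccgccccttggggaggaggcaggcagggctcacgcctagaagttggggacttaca

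The other interferon-induced proteins included the most abundant transcript of the list per length. Ifi27l2a, a small membrane protein, had a level of 210.4 CPM per kilobase over the 8 libraries, followed by Lgals3bp at 66.4, Ifi35 at 62.2, Irf7 at 53.5, Ifi47 at 51.8 and Igtp at 50.9 CPM per kilobase. Below Ifi27l2a these levels lay close together, and the spread of Irf7 across libraries covers the levels of its neighbours in that order. The median gene stood at 12.2 CPM per kilobase and the lowest, Ifit3b, at 0.576 CPM per kilobase.

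Ifi27l2a was at 132, 99.1 and 98.8 CPM in KO1, KO2 and KO3, with 97.2 CPM in the library labelled KO4, against 92.5, 62.6, 60.1 and 137 CPM in WT1 to WT4. WT4 and KO1 were the highest and WT2 and WT3 the lowest. Its log2 fold change was 0.28 ± 0.24 (SE, p 0.275 before adjustment) over all libraries and -0.08 in the 5 libraries with Xist. Lgals3bp, a secreted glycoprotein that binds galectins, was at 231, 178 and 199.9 CPM in KO1, KO2 and KO3, with 195 CPM in the library labelled KO4, against 199.8, 161, 148 and 200.4 CPM in WT1 to WT4, with a log2 fold change of 0.18 ± 0.12 (SE, p 0.174 before adjustment). Its levels were among the steadiest of the list, 1.56-fold apart between the highest and lowest library. Rtp4, a receptor chaperone, was at 49.98, 32.1 and 37.3 CPM in KO1, KO2 and KO3, with 33.9 CPM in the library labelled KO4, against 36.3, 36.3, 33.97 and 25.3 CPM in WT1 to WT4, with a log2 fold change of 0.22 ± 0.17 (SE, p 0.217 before adjustment). As for Oas3, WT4 was the lowest library for Rtp4. Ifi35 stood at 82.2 to 123 CPM in KO libraries and 75.5 to 154 CPM in WT libraries. Ifi44 stood at 36.2 to 101 CPM in KO libraries and 48.8 to 118 CPM in WT libraries, and both were highest in WT4.

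**Figure D2:**
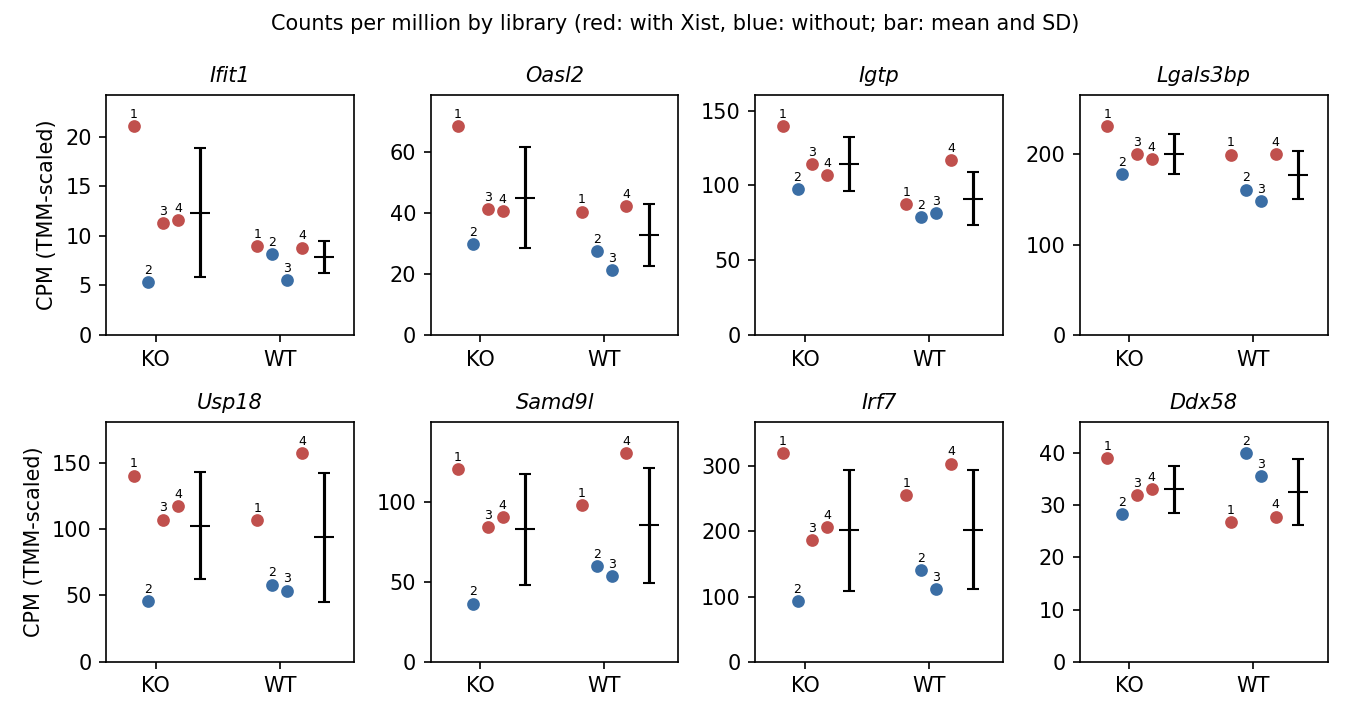
CPM in each library (numbered points, red with Xist RNA, blue without) for 8 of the genes, with the mean and SD of each genotype beside the points and KO left of WT. For Usp18, Samd9l and Irf7 the blue points are the lowest of both genotypes, and for Ddx58 they are not.

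Which libraries moved the list was counted from the highest and lowest library of each gene. KO1 was the highest library for 26 of the 39 genes (66.7%), beside 9.4% of all genes tested, and WT4 for 10 (25.6%), beside 13.5% of all genes. The 10 genes highest in WT4 were Irf9, Oasl1, Oas2, Samd9l, Trim30a, Herc6, Usp18, Ifi27l2a, Ifi35 and Ifi44, while Oas1a was highest in the library labelled KO4, Stat2 in WT1 and Ddx58 in WT2. KO2 was the lowest library for 17 (43.6%), beside 14.1% of all genes, and WT3 for 13 (33.3%), beside 11.3%. The fold between the highest and the lowest library ran from 1.47 in Irf9 to 18.5 in Ifit3b, with a median of 1.98. The SD of log2 CPM within a genotype had a median of 0.33 over the KO and 0.32 over the WT libraries for the list, beside 0.25 and 0.26 over all genes tested.

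Summarised as the median over the 39 genes of log2 CPM minus the gene's mean, the list stood at 0.49, -0.35 and 0.11 in KO1, KO2 and KO3, with 0.07 in the library labelled KO4, against 0.05, -0.17, -0.34 and 0.18 in WT1 to WT4. The KO libraries included both the highest and the lowest value, so the WT values fell inside the KO range. The mean of these medians was 0.08 in KO (SD 0.34) and -0.07 in WT (SD 0.23), a difference of 0.15 that was smaller than either SD. It was 0.019 without KO1, 0.058 without WT3 and 0.095 without WT2, and it was 0.29 without KO2, 0.25 without WT4 and 0.25 with WT4 and the library labelled KO4 both left out. Among the 5 libraries with Xist, fitted by themselves, the difference was 0.11, and among the 3 without Xist, KO2 stood at -0.35 against -0.17 and -0.34 in WT2 and WT3.

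**Figure D3:**
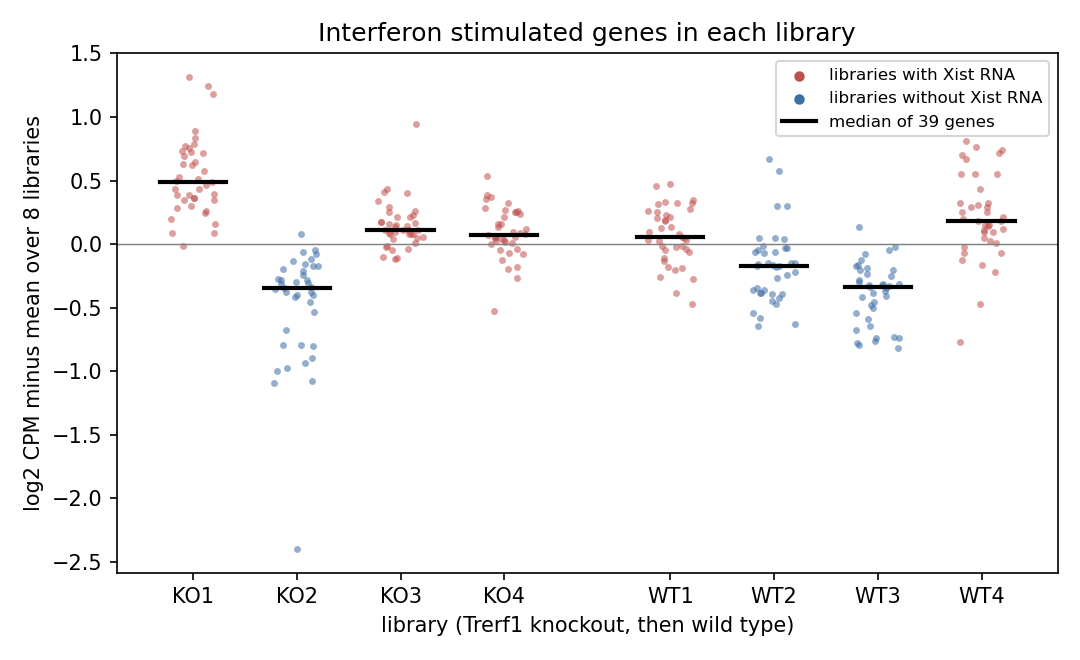
Log2 CPM minus the gene's mean over 8 libraries for each of the 39 genes (points) and their median (bar) by library, KO left of WT, coloured by whether Xist RNA was present. The medians of KO2, WT2 and WT3, at -0.35, -0.17 and -0.34, are the 3 lowest of the 8.

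The 3 lowest medians were those of the libraries without Xist RNA. Grouping by Xist was chosen after the medians were seen, and the labels do not give the sex of the animals. The 5 libraries with Xist averaged 0.18 (SD 0.18) and the 3 without averaged -0.29 (SD 0.098), a difference of 0.47, which ranged from 0.41 to 0.51 as each library was left out. In 22 of the 39 genes (56.4%) every library with Xist lay above every library without, beside 5.91% of all genes tested, and in 0 of 39 below, beside 3.89%. When the Xist class was tested beside genotype in 1 edgeR model, 6 of the 39 genes (15.4%) were higher with Xist at an adjusted p under 0.05, beside 176 of 16352 genes (1.08%) in either direction and 0.764% higher with Xist. At an unadjusted p under 0.05 the counts were 31 of 39 (79.5%), all higher with Xist, beside 13% of all genes (7.68% higher and 5.36% lower). Estimates were above 0 for 37 of 39 genes, beside 50.4% of all genes, with a median of 0.51, beside 0.0028 over all genes tested.

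The 6 genes called, named after their values were seen, were Usp18, Samd9l, Irf7, Isg20, Ifi44 and Ifit2, which are a brake on the receptor, a translation regulator, the factor for interferon alpha genes, an exonuclease, a protein of less known function and an RNA-binding protein. Usp18 averaged 126 ± 22.2 CPM in the libraries with Xist and 52.4 ± 6.36 CPM in those without (SD, n = 5 and 3), a log2 difference of 1.31 ± 0.15 (SE, edgeR adjusted p 0.0088). Samd9l averaged 104 ± 19.8 CPM in the libraries with Xist and 49.8 ± 12.05 CPM in those without, a log2 difference of 1.18 ± 0.17 (edgeR adjusted p 0.0229), and Irf7 averaged 254 ± 58.2 CPM in the libraries with Xist and 115 ± 24.3 CPM in those without, a log2 difference of 1.24 ± 0.19 (edgeR adjusted p 0.0268). For each of these 3 the lowest library with Xist lay above the highest without. Isg20, Ifi44 and Ifit2 had log2 differences of 0.91 ± 0.18, 1.06 ± 0.21 and 0.81 ± 0.16 (edgeR adjusted p 0.0452, 0.0481 and 0.0481). Isg15 (1.10) and Mx1 (0.9998) had estimates as large as these without passing the threshold. The estimates nearest to or below 0 were Ddx58 at -0.16, Oas3 at -0.10 and Rtp4 at 0.03, none of which passed the test.

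The calls rested on few libraries, and with the replicate number as a block 0 of the 39 genes were called. Within a number only KO3 and WT3 differ in Xist class, so the block fit cannot decide whether the classes differ. With any of the 3 libraries without Xist left out (KO2, WT2 or WT3) 0 of the 39 genes were called, and there was 1 without WT4 and 3 without KO1 or without KO3, although the number of estimates above 0 stayed between 34 and 38 of 39. Genotype and the Xist class overlapped in part, with 3 KO and 2 WT libraries holding Xist and 1 KO and 2 WT libraries lacking it.

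**Figure D4:**
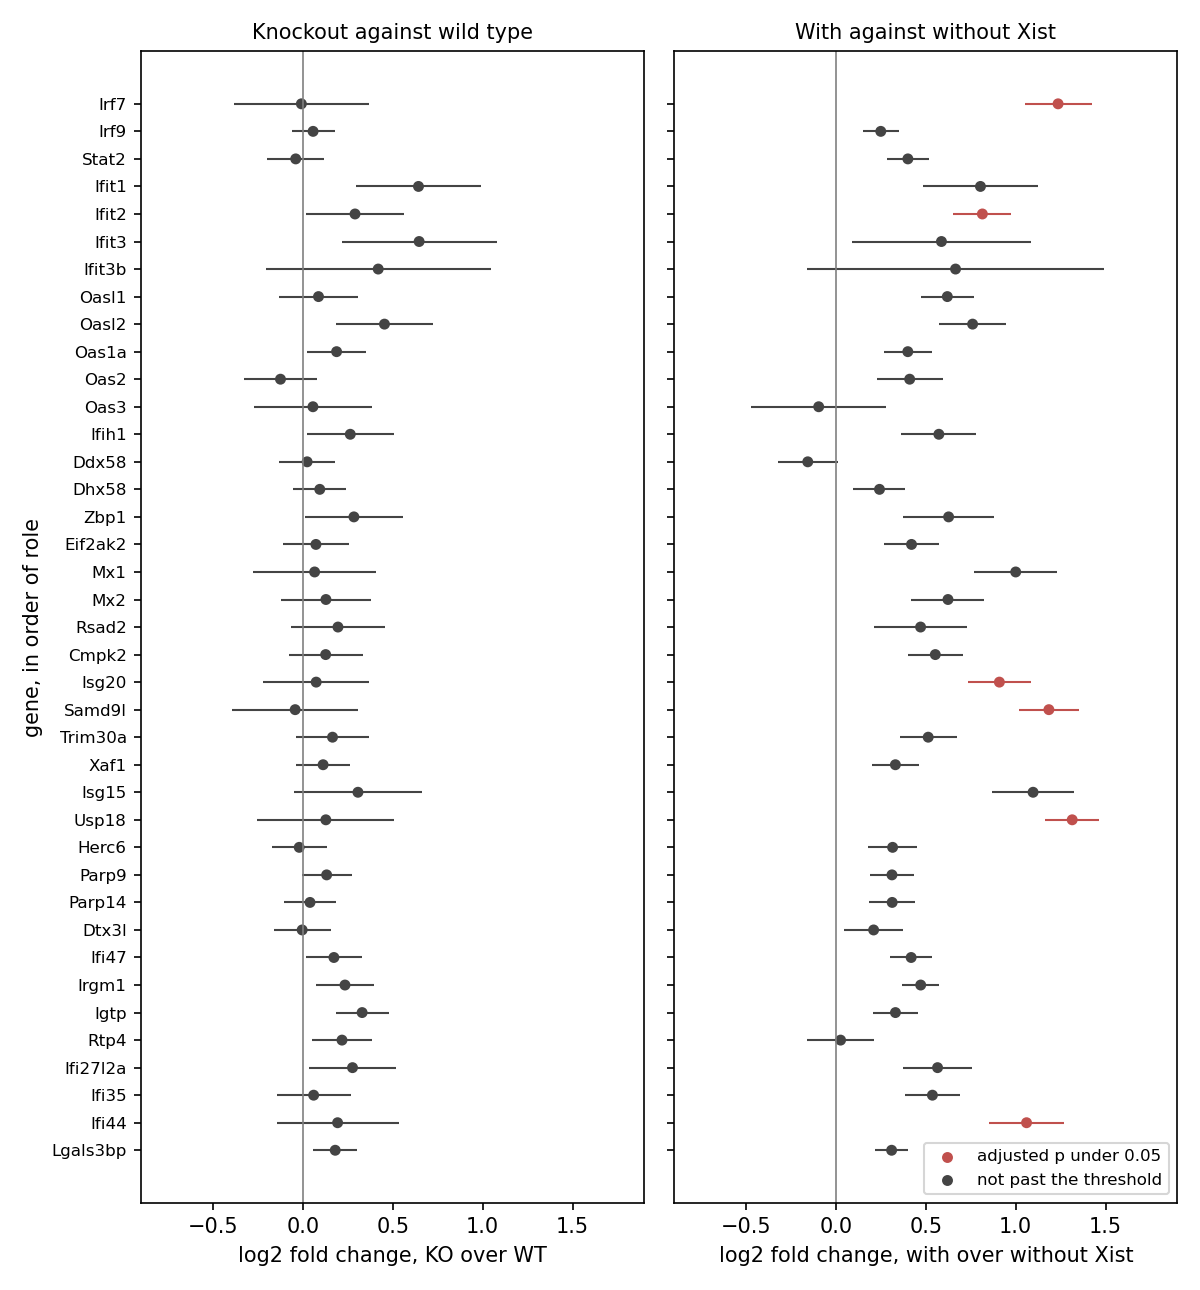
Log2 fold change and standard error of each of the 39 genes, for KO over WT (left) and for libraries with over without Xist beside genotype (right), with red points past an adjusted p of 0.05. The left estimates run from -0.13 to 0.65 with 0 red points, and on the right 37 of 39 lie above 0 with 6 red points.

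The rest of the pathway was read from 113 further genes, of which 90 had enough counts. Between knockout and wild type 0 of the 90 were called, beside 0% of all genes, 4 (4.44%) had an unadjusted p under 0.05, all higher in knockout, beside 1.04% of all genes in that direction, and 63 (70%) had an estimate above 0. Few counts were assigned to the interferon genes themselves. Reads that match several interferon alpha genes could have been left out or split by the authors' counting. Of 21 ligand genes 10 had no count in any library, and only Ifnk and Ifng, the type II interferon, had enough counts to be tested. Ifnb1 had 4 counts in the library labelled KO4 and 0 in the other 7, and the highest count of any interferon alpha gene was 10, for Ifna2 in WT2. A count of 0 allows 3 counts only if counts are independent. Over all genes there were 3.79 counts per RSEM expected count, so the limit may be higher. Transcripts at that level or in few cells were not detectable at this depth.

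The receptor chains and their kinases were detected in every library. Ifnar1 averaged 320.01 ± 30.02 CPM in KO and 316 ± 59.5 CPM in WT, and Ifnar2 averaged 253 ± 11.2 CPM in KO and 256 ± 57.98 CPM in WT. Jak1 was at 334 to 393 CPM in KO libraries and 335 to 376 CPM in WT libraries, and Tyk2 at 71.02 to 99.6 CPM in KO libraries and 77.2 to 133 CPM in WT libraries. Of the regulatory factors outside the list, Irf1 stood at 139.8 to 188 CPM in KO libraries and 124 to 174 CPM in WT libraries, and Irf3 at 132 to 163 CPM in KO libraries and 121 to 152 CPM in WT libraries. Irf8, which shapes dendritic and B cell fate, stood at 3085 to 3992 CPM in KO libraries and 3073 to 4799.6 CPM in WT libraries. Tlr7, the endosomal sensor of single-stranded RNA that is encoded on the X chromosome, was at 81.6 to 126 CPM in KO libraries and 65.9 to 142 CPM in WT libraries. Tlr9, the sensor of unmethylated DNA, was at 5.34 to 7.72 CPM in KO libraries and 4.54 to 9.89 CPM in WT libraries.

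The 4 pathway genes with the smallest p between knockout and wild type were Tgtp2, Ifitm1, Ifitm3 and Gbp3, and none passed after adjustment (0.999 for each). Tgtp2, an immunity-related GTPase with the near copy Tgtp1, was at 100.01, 68.1 and 84.8 CPM in KO1, KO2 and KO3, with 87.1 CPM in the library labelled KO4, against 60.2, 58.9, 67.1 and 72.995 CPM in WT1 to WT4. The KO libraries lay above the WT libraries except that KO2 was below WT4 (log2 fold change 0.39 ± 0.12, SE, p 0.00965 before adjustment). Ifitm1, a membrane protein that blocks viral fusion, was at 15.1, 27.8 and 10.6 CPM in KO1, KO2 and KO3, with 27.5 CPM in the library labelled KO4, against 9.39, 9.72, 13 and 12.6 CPM in WT1 to WT4 (log2 fold change 0.86 ± 0.29, SE, p 0.0133 before adjustment). KO2 and the library labelled KO4 were high, and KO3 was within the WT range. Ifitm3, its relative, was at 75.2, 54.2 and 53.3 CPM in KO1, KO2 and KO3, with 55.01 CPM in the library labelled KO4, against 51.9, 47.3, 42.8 and 39.9 CPM in WT1 to WT4 (log2 fold change 0.39 ± 0.13, SE, p 0.0158 before adjustment), with every KO library above every WT library, as in 0.74% of all genes. Gbp3, a guanylate-binding GTPase, was at 53.2, 63.2 and 50.3 CPM in KO1, KO2 and KO3, with 51.3 CPM in the library labelled KO4, against 43.4, 52.4, 42.98 and 36.6 CPM in WT1 to WT4 (log2 fold change 0.31 ± 0.13, SE, p 0.0306 before adjustment). Unlike the 39 genes, Ifitm1 and Gbp3 had KO2 as their highest library.

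By the Xist class, 8 of the 90 pathway genes (8.89%) were called, all higher with Xist. Over all genes 0.764% were called higher with Xist and 1.08% in either direction. At an unadjusted p under 0.05, 28 pathway genes (31.1%) were higher, beside 7.68% of all genes, and 4 (4.44%) lower, beside 5.36%. The genes called included, named after their values were seen, Sp100, Gbp9, Phf11a, Phf11b, Slfn2, Slfn5 and Tlr7. Gbp9, another guanylate-binding GTPase, averaged 79.7 ± 7.43 CPM in the libraries with Xist and 45.4 ± 5.08 CPM in those without (SD, n = 5 and 3), a log2 difference of 0.76 ± 0.10 (SE, edgeR adjusted p 0.0137). Slfn2, a Schlafen family regulator of immune cell quiescence, averaged 38.5 ± 9.26 CPM in the libraries with Xist and 13.7 ± 2.21 CPM in those without (1.43 ± 0.22, edgeR adjusted p 0.0268). Tlr7 averaged 123 ± 13.2 CPM in the libraries with Xist and 78.6 ± 11.5 CPM in those without (0.66 ± 0.13, edgeR adjusted p 0.0452). The count of pathway genes called was 0 without KO2, WT2 or WT3, 1 without WT4 and 5 without KO1, without KO3 or without the library labelled KO4.

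Marker genes of other cells were set beside the same classes of libraries, where at an unadjusted p under 0.05 7.68% of all genes were higher and 5.36% lower with Xist. The summed level of 10 plasmacytoid dendritic cell markers was 7017 to 9612 CPM in the libraries with Xist and 5250.3 to 6019 CPM in those without, with 8 of 10 higher at an unadjusted p under 0.05 and 1 of these, Pacsin1, past the adjusted threshold. Siglech, a surface receptor of these cells, averaged 1735 ± 390.2 CPM in the libraries with Xist and 1067 ± 84.9 CPM in those without, a log2 difference of 0.73 ± 0.16 (SE, edgeR adjusted p 0.0662). None of the 10 was at 0 in any group. The sum of the 10 monocyte and macrophage markers was 561 to 717 CPM with Xist and 391 to 544 CPM without. Of the 8 tested, 3 were higher and 1 lower at an unadjusted p under 0.05. Among the higher 1, Ly6c2, was past the adjusted threshold, and Fcgr1 was among those of the list too low to be tested. T cell markers summed to 372 to 502 CPM with Xist and 283 to 315 CPM without, with 3 of 10 higher at an unadjusted p under 0.05. These were Cd4, Cd8a and Cd8b1, and which cells carried them was not tested. Most of the gap in the T cell sums was Cd4, at 165 ± 75.2 CPM with Xist and 55.7 ± 15.7 CPM without (SD). Cd3d, Cd3e and Cd3g overlapped between the classes, and the estimate for Lat was below 0 (-0.36). Early lymphoid progenitor markers overlapped, at 6788 to 8750 CPM with Xist and 7871 to 10709 CPM without, with 6 of 10 lower with Xist at an unadjusted p under 0.05 and 1 of these, the recombination gene Rag1, past the adjusted threshold. NK cell markers summed to 191 to 250.3 CPM with Xist and 249.95 to 273 CPM without, with 1 of 10, Nkg7, lower with Xist past the adjusted threshold. B lineage markers summed to 759.6 to 961 CPM with Xist and 649 to 917 CPM without, with 2 of 10 higher and 2 lower at an unadjusted p under 0.05 and 1 of the lower, Vpreb1, past the adjusted threshold. Markers of group 2 innate lymphoid cells (1 lower), of neutrophils (1 higher and 1 lower) and of erythroid cells (0) had few genes at an unadjusted p under 0.05, and their sums overlapped between the classes. The part of these cell types in the levels of the 39 genes was not tested.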

How the data were processed

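RNA of 8 libraries was read from the tables that the authors deposited. Per the file headers, whole-number read counts per gene came from featureCounts 1.6.4. The authors also deposited RSEM expected counts (RSEM 1.3.1, with STAR 2.6.0a and Picard 2.19 named in the submitters' processing notes), used here rounded to whole numbers as an alternative. Coordinates of genes are not printed, since the notes name mm10 and the header's annotation path names GRCm39. Promoter windows and their coordinates come from the RefSeq table (GRCm38.p6). Per the labels' protocols, libraries were made from 200 ng of total RNA with a low-input kit, which does not mark strand.

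Of 53647 identifiers 52093 (97.1%) matched a symbol. Groups were taken from titles and genotype labels. The fit of the counts used edgeR 4.0.16 (R 4.3.3; filterByExpr, TMM, quasi-likelihood F test, Benjamini-Hochberg adjustment over 16352 genes, threshold 0.05), with DESeq2 1.42.0 and limma-voom (limma 3.58.1) as alternatives. CPM values carry their SD. Standard errors of log2 fold changes were computed from each estimate and its F statistic. A prior count of 3 was added for log2 CPM. The Xist class was 10 CPM or more against less. The members, lists, tests and alternatives were chosen with earlier results of these data known. Genes named are Trerf1, the 10 members and 4 pathway genes with the smallest p, the 6 members highest per kilobase, the 6 whose highest library lay furthest above the median library, and receptors, kinases and factors by role, with other members given by range, except that Usp18, Samd9l, Ifit2, Isg15, Ifih1 and Ddx58, chosen after their values were seen, are also given by library. The test was tried on simulated counts before use. Some pathway and marker genes are not reported here.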

Additional observations from a re-analysis of the deposited data

Results flagged for a closer look

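Among 108 groups of 4 libraries, 5 held a library far from the other 3 by Dixon's test, which chance gives in about 1 in 20 groups. The groups were Trerf1, the list's median, the 39 genes and some pathway genes named in the text, each in KO and in WT. Marker genes and other genes named were not screened. Trerf1 in the library labelled KO4 was at 22.1 CPM, above the next KO library at 13.4 CPM. Of the 39 genes, Ifi27l2a in KO1 was at 132 CPM, with the next KO library at 99.1 CPM, and Trim30a in WT4 was at 255 CPM, with the next WT library at 146 CPM. Of the other pathway genes, Ifitm3 in KO1 was at 75.2 CPM, with the next KO library at 55.01 CPM, and Irf1 in KO1 was at 188 CPM, with the next KO library at 147 CPM.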

How the results depend on the processing

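Between knockout and wild type 0 of the 39 genes were called under each of the 21 alternatives, and 0 to 6 had an unadjusted p under 0.05. With WT4 and the library labelled KO4 left out, Trerf1 passed the threshold (log2 fold change -1.20, edgeR adjusted p 0.0473) and 12 genes were called. Those libraries held the lowest Trerf1 of WT and the highest of KO, so the larger change of Trerf1 was built in. The log2 fold change of Ifi27l2a turned to -0.079 in the 5 libraries with Xist. At an unadjusted p under 0.05 the number of genes was 836 with no filter, 565 with DESeq2, 891 with limma-voom, 1427 without WT4 and the library labelled KO4, 918 in the 5 shallower libraries and 168 to 1016 with each library left out. The difference of the list's medians between KO and WT ran from 0.019 to 0.29 with each library left out, and it was 0.23 in the 5 shallower libraries.

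Counts called by the Xist class moved under many alternatives, and the cause was not tested. The members called were 3 with library size alone, 21 with no filter, 14 with DESeq2, 3 with depth class as covariate, 3 without WT4 and the library labelled KO4, 0 in the 5 shallower libraries and 0 to 7 with each library left out. All genes called were 946 with no filter, 727 with DESeq2, 98 with depth class, 95 without both these libraries, 18 in the shallower libraries and 5 to 179 with each library left out. Pathway genes called were 5 with library size alone, 19 with no filter, 14 with DESeq2, 5 with expected counts, 4 with depth class, 2 without both these libraries, 0 in the shallower libraries and 0 to 9 with each library left out.

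With the replicate number as a block, 0 genes were called between KO and WT, with 634 at an unadjusted p under 0.05. The block left 2 genes, 0 members and 0 pathway genes called by the Xist class. KO3 and WT3 are the only same-numbered libraries of unlike Xist class, so the Xist term in that fit rested on this pair. The loss of calls therefore cannot decide whether the classes differ. Deviations of same-numbered libraries correlated at 0.36, 0.31, -0.03 and 0.12 across genes for numbers 1 to 4. The values were higher for numbers 1 and 2 than for 3 and 4, so whether the numbers pair the libraries was not settled. KO1 and KO2 correlated best with WT1 and WT2. In contrast, KO3 correlated best with WT4 (0.2) and the library labelled KO4 with WT3 (0.16). Depth limits mainly Ifit3 and Ifit3b, since the other 37 genes had at least 100 counts in every library.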
